A study of Mus musculus with 4 samples.

Results

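The 10 immediate early genes described here are Fos, Fosb, Fosl2, Jun, Junb, Jund, Atf3, Myc, Ier2 and Dusp1, out of 21670 annotated protein-coding mouse genes (chromosome Y and the mitochondrial genome left out). They were taken by name, and their promoter peaks and domains were read within 1000 bp of any annotated start in all 4 deposited peak lists. The mark measured was trimethylation of lysine 4 on histone H3 (H3K4me3), mapped by chromatin immunoprecipitation and sequencing (ChIP-seq) in hearts of female B6CASTF1/J mice, an F1 hybrid strain, at 2 months of age. The 4 libraries came from 2 pools of heart tissue, prepared by a protocol for frozen tissue, G (labelled biological replicate 1) and H (labelled biological replicate 2), with 2 heart biosamples in each pool and 2 libraries, called technical replicates, from each. All libraries carried the same donor record, so the labels do not say whether the pools held separate animals, and differences between pools may be technical. The samples used here hold no other tissue, stimulus or genotype. Heart is a mixture of cell types, so a mark in fewer cells and less of the mark per cell cannot be told apart.

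Immediate early genes are transcribed within minutes of a stimulus without new protein synthesis, mainly through serum response factor with its partners, through CREB and through mitogen-activated protein (MAP) kinase signalling. Fos and Jun family proteins pair through leucine zippers to form AP-1, a transcription factor that binds DNA at AP-1 and cAMP response elements, and Atf3 is a stress-induced relative that pairs with Jun proteins. Myc heterodimerises with Max and binds E-boxes, Ier2 is a small nuclear protein, and Dusp1 dephosphorylates MAP kinases and so limits the same signalling. In heart several of these genes are known for rapid induction by pressure load, ischaemia and catecholamines. H3K4me3 is found at the starts of active and poised genes, and broad H3K4me3 domains are known at genes of cell identity and at some regulators. The mark itself is not a measure of transcription.

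Sequences are shown for the stretches on which the peak shapes below turn. In 5 members the replicated list, which draws on both pools and is the main list here, held 2 neighbouring peaks with an uncalled stretch of 101 to 277 bp between them, just before the start (at Dusp1, across it), here named the unmarked stretch, and those sequences stand first. The Fos promoter, which lay inside an unbroken peak, is shown for comparison, as the 250 bases before the start. All are in the direction of transcription, 5′ to 3′, from the mm10 reference. The Fos sequence is credited to RefSeq, GRCm38.p6, and the F1 mice also carry alleles of another strain that the reference does not show. Capitals mark the motifs searched for on both strands. For the cAMP response element these were its core TGACG and, overlapping it, the full palindrome TGACGTCA. An AP-1 site was read as TGANTCA, an E-box as CACGTG and a GC box as GGGCGG. The TATA box was read as TATAAA, the CCAAT box as its letters, and the CArG box of serum response factor was searched for as well. Jun is on the minus strand at chr4:95052254-95052530, Junb on the minus strand at chr8:84978752-84978870, Jund on the plus strand at chr8:70698822-70698937, Atf3 on the minus strand at chr1:191183364-191183464, Dusp1 on the minus strand at chr17:26508514-26508650, and Fos on the plus strand at chr12:85473640-85473889.
Jun: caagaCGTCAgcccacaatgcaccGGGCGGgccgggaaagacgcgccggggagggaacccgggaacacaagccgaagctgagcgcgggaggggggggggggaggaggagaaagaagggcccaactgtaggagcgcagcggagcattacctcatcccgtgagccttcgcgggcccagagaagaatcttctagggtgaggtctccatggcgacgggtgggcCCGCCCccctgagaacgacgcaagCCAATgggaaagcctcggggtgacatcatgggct
Junb: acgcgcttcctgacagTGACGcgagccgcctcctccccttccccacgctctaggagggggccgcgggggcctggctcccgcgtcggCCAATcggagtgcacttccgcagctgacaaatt
Jund: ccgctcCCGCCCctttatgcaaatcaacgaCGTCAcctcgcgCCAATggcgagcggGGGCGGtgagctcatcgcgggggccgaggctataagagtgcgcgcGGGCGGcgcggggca
Atf3: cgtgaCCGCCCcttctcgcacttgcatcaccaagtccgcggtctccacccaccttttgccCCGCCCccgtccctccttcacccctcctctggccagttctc
Dusp1: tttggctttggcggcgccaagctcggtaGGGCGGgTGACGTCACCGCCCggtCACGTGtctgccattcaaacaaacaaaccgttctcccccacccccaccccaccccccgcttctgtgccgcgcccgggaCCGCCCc
Fos: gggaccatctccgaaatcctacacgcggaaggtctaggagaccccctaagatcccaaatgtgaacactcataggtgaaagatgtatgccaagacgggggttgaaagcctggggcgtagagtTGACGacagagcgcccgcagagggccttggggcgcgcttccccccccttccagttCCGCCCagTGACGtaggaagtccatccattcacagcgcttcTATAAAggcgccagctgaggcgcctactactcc

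All 10 immediate early genes carried a promoter peak in the replicated list, against 63% of all protein-coding genes, and all 10 did so in each of the 4 lists, against 61.1% of all genes. Their marked regions were broad, with heights closer to those of other genes. Neighbouring peaks separated by 1000 bp or less count as 1 domain, and the members' promoter domains had a median width of 4864.5 bp, beside 1799 bp over the 13657 genes with a promoter peak. Of the 10, 6 lay among the widest 5% of those genes (at least 4482 bp), namely Fosl2, Jun, Junb, Myc, Ier2 and Dusp1. Junb was the nearest member inside that bound, with 4858 bp, and Atf3 the nearest outside it, with 4118 bp. The fold enrichment of the highest promoter peak, the authors' own value per peak, had a median of 17.4 over the members and 15.3 over all marked genes. By each pool's own bound 7 members were among the widest in pool G, against 5.01% of marked genes there, and 7 in pool H, against 5%, with Atf3 added in both. Counts and medians are descriptions of a named list and were not tested.

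**Figure D1:**
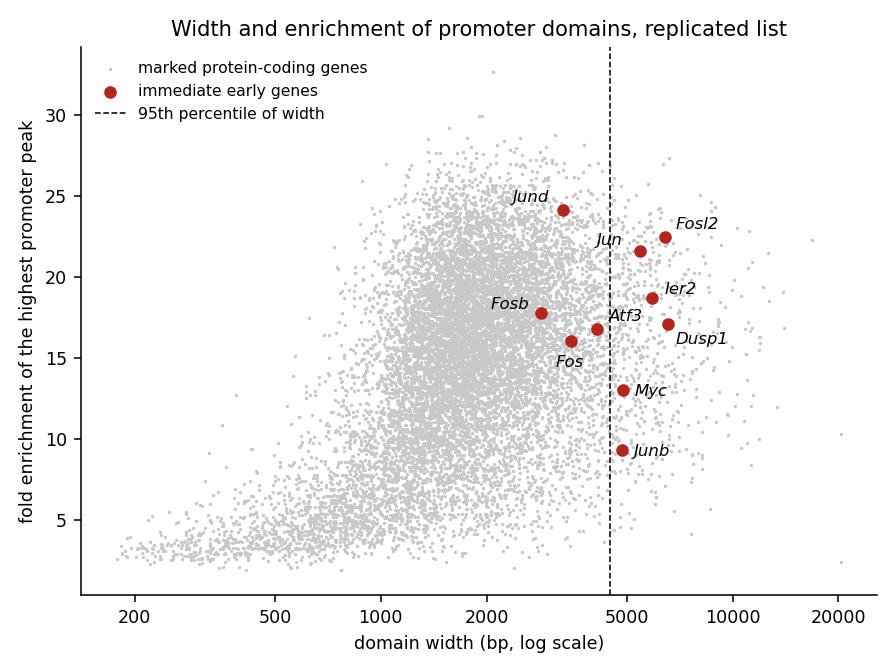
Domain width (bp, log scale) against the fold enrichment of the highest promoter peak in the replicated list. Red points are the 10 immediate early genes, grey points the marked protein-coding genes, and the dashed line the 95th percentile of width at 4482 bp; 6 red points lie to its right, and the heights of all 10 run between 9.28 for Junb and 24.1 for Jund.

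Among the Fos family, Fosl2 carried the broadest domain and Fosb the narrowest. Fos, the founding member, which pairs with Jun proteins, had a domain of 3687 bp in pool G against 3455 bp in pool H (3571 ± 164 bp, SD, n = 2 pools), at chr12:85471682-85475164 in the replicated list. Its fold enrichment was 18.6 in pool G and 13.8 in pool H, near the middle of all marked genes in both pools' lists (percentile 52.4 in pool G and 57.3 in pool H). The Fos domain was 1 unbroken peak in pool G, while pool H's list held 2 peaks there, parted well upstream of the start. Fosb, an activity-dependent relative of Fos, had a domain of 2890 bp in pool G against 2885 bp in pool H, at chr7:19307918-19310764, over all 3 annotated coding starts. The Fosb fold enrichment was 21.7 in pool G and 12.9 in pool H. Fosl2, also called Fra-2, had a domain of 6634 bp in pool G against 6385 bp in pool H, at chr5:32132674-32139114, wider than 98.5% of marked genes in the replicated list. Fosl2 was also high, with a fold enrichment of 28.4 in pool G and 17.1 in pool H. The fourth Fos gene, Fosl1, was not among the members and is named after its values were seen: its domain was 1472 bp in pool G against 957 bp in pool H, below the width of every Fos family member listed here.

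The 3 Jun family genes, each with 1 exon in its longest coding transcript, differed in height, with Jund high and Junb low. Jun had a domain of 5667 bp in pool G against 5000 bp in pool H (5334 ± 472 bp, SD, n = 2 pools), at chr4:95048848-95054291, and a fold enrichment of 25.9 in pool G and 17.3 in pool H. Junb, which often opposes Jun at shared targets, had a domain nearly as wide, 4961 bp in pool G against 4767 bp in pool H, at chr8:84975837-84980694. Its height was the lowest of the 10, with a fold enrichment of 12.8 in pool G and 9.79 in pool H. In the replicated list Junb stood at percentile 96.1 of width and percentile 20.0 of fold enrichment. That width joins an upstream peak of 1824 bp, with a fold enrichment of 4.14, to a peak of 2915 bp with 9.28. Jund, the Jun gene known for steady expression in unstimulated cells, was higher but narrower than Junb. Its domain was 3568 bp in pool G against 3425 bp in pool H, at chr8:70697974-70701273, and its fold enrichment was 28.1 in pool G and 20.1 in pool H. Jund reached percentile 96.8 of fold enrichment in the replicated list, the highest of the members there, and percentile 88.3 of width. Between Jund and Junb the pool ranges of both measures were apart.

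Atf3, which is kept low in resting tissue and induced by stress, had a domain of 4765 bp in pool G against 4050 bp in pool H, at chr1:191181941-191186058. Pool G's list held a peak upstream, from -3345 to -2920, that pool H's list did not hold. The rest of the domain also reached farther in pool G, from -2810 to 1419, against -2663 to 1386 in pool H. Atf3 passed the 95th percentile of width in both pools' own lists, while in the replicated list it stood at percentile 93.7. Its far upstream start, at position 191218039 of chromosome 1, had no peak within 1000 bp in any list, so the mark lay at 1 of its 2 coding starts. Myc, a transcription factor of growth and proliferation, had a domain of 4881 bp in pool G against 4839 bp in pool H (4860 ± 29.7 bp, SD, n = 2 pools), at chr15:61983513-61988383. All 6 annotated Myc starts lay under it. The Myc fold enrichment was 16.6 in pool G and 13.1 in pool H, below the middle of the replicated list at percentile 36.3.

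Ier2 had a width that hardly differed between pools, 5943 bp in pool G against 5963 bp in pool H, at chr8:84659833-84665752, with a fold enrichment of 21.9 in pool G and 16.6 in pool H. Its transcript spans 1522 bp, so most of that domain lay outside the gene. Dusp1 had a domain of 6625 bp in pool G against 5924 bp in pool H (6275 ± 496 bp, SD, n = 2 pools), at chr17:26502770-26509326. It was the widest member in the replicated list at 6557 bp, while Fosl2 was wider in both pools' own lists. The Dusp1 fold enrichment was 22.7 in pool G and 14.2 in pool H. Its value of 17.1 in the replicated list belonged to a peak at a distant annotated Dusp1 start, at position 26562128 of chromosome 17, which lies next to the start of Ergic1. At the gene's main start the replicated value was 14.7. The distant start had fold enrichments of 18.05 in pool G and 11.67 in pool H and cannot be assigned to Dusp1 from these lists.

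**Figure D2:**
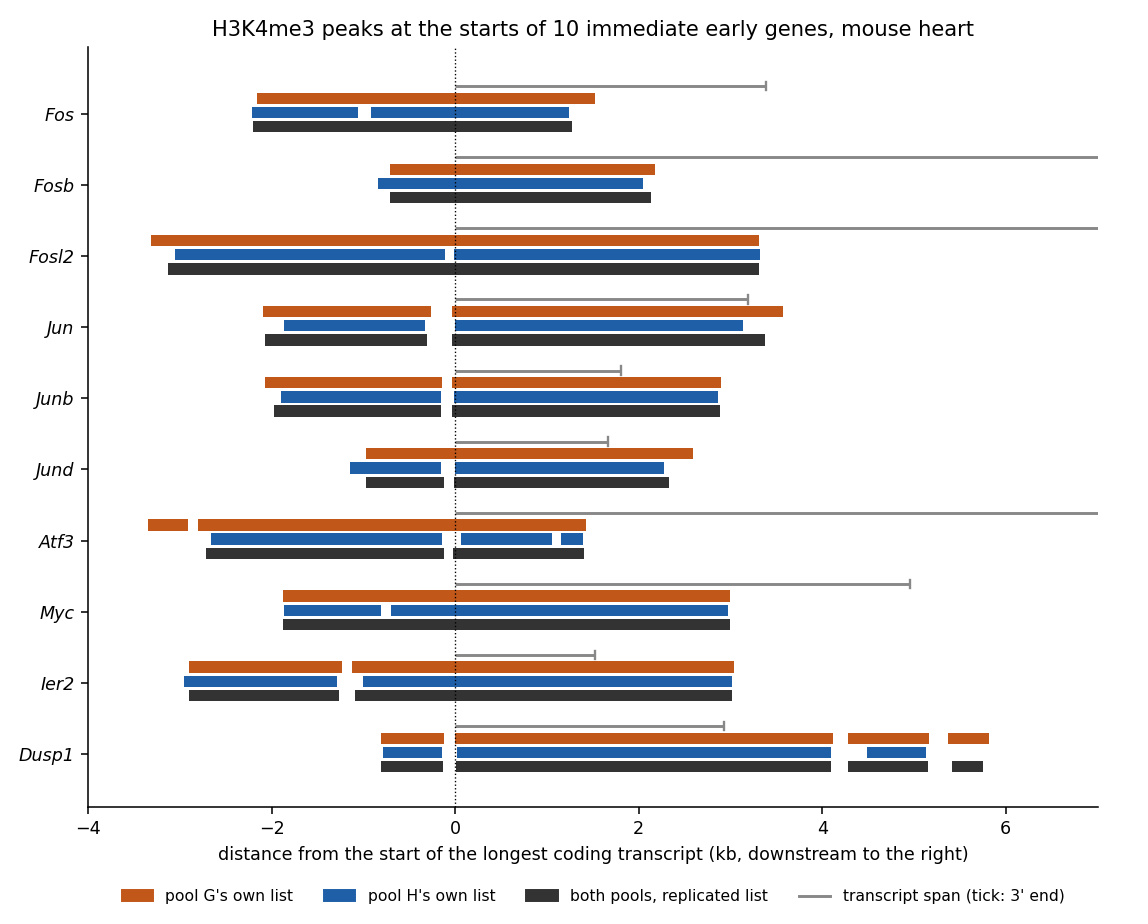
Extent of the called H3K4me3 peaks around the main start of each member, in kb, in pool G's list (orange), pool H's list (blue) and the replicated list (black), with the transcript span in grey. The domains of Fosl2 and Ier2 reach far to both sides, that of Dusp1 runs downstream past the gene, and blank stretches just left of the dotted line mark breaks between 2 peaks before the start.

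By width in the replicated list the order was Dusp1, Fosl2, Ier2, Jun, Myc, Junb, Atf3, Fos, Jund and Fosb. Of the 9 neighbouring pairs in it, Dusp1 and Fosl2, Myc and Junb, and Fos and Jund had overlapping ranges over the pools. Within each pool's own list, though, Fos was wider than Jund and Fosl2 was wider than Dusp1. Myc was wider than Junb in pool H only. By height the order was Jund, Fosl2, Jun, Ier2, Fosb, Dusp1, Atf3, Fos, Myc and Junb, and only the last pair, Myc and Junb, had ranges that did not overlap. Dusp1's place in that order rests on the distant start, and with the 14.7 of its main start in the replicated list it would follow Fos. In both pools' own lists the main start gave Dusp1's value, 22.7 in pool G and 14.2 in pool H. There Dusp1 stood above Fosb, which had 21.7 in pool G and 12.9 in pool H. The ranges of fold enrichment over the pools also hold the offset between the lists. Within each pool's own list, Jun was higher than Ier2, Ier2 than Fosb, Dusp1 than Atf3, Fos than Myc, and Myc than Junb. Jund was above Fosl2 in pool H only, and Fosl2 above Jun and Atf3 above Fos in pool G only. Every member had a higher fold enrichment in pool G than in pool H, as did 96.1% of the 13245 genes marked in both pools, so the members' share was near that of all genes. The median ratio of fold enrichment, G over H, was 1.44 for the members and 1.42 for all those genes.

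Width differed less between pools. It was larger in pool G for 9 of 10 members, the exception being Ier2, and for 88.7% of all genes. The median width ratio, G over H, was 1.04 for the members and 1.13 for all genes. In 9 of the 10, Atf3 being the exception, the widths of the pools differed by no more than 15% of the width in pool H, against 54.7% of all genes. That difference was not tested, and the members' widths were also larger than those of most genes.

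**Figure D3:**
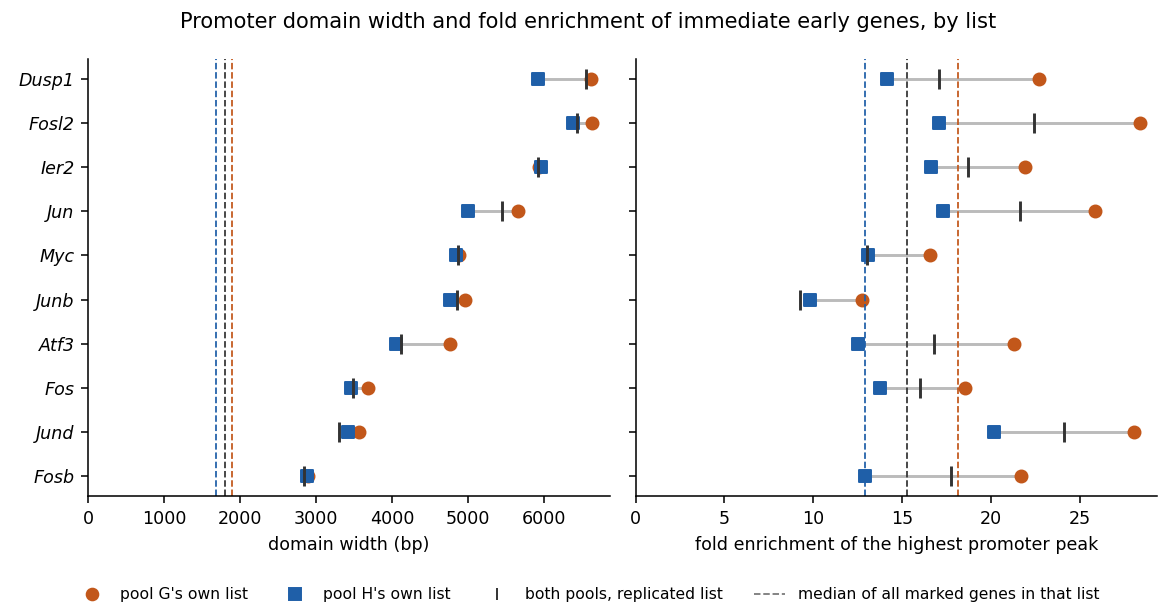
Domain width (left, bp) and fold enrichment of the highest promoter peak (right) of each member in pool G's list (circles), pool H's list (squares) and the replicated list (bars), with dashed lines at the median of all marked genes in each list. Pool G's circle is right of pool H's square for fold enrichment in all 10 genes, and in width all 10 lie right of the medians of 1892 bp in pool G, 1680 bp in pool H and 1799 bp in the replicated list.

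Measured from the start of the longest coding transcript, the members' domains reached a median of 2022.5 bp upstream and 2936.5 bp downstream, beside 605 bp upstream and 1081 bp downstream over the 13125 genes marked at that start. Domains reached farther downstream than upstream in 8 of 10 members and in 79.0% of all those genes, so the share in the members was near that of all genes. Fos and Atf3 leaned the other way. The Fos domain reached 2208 bp upstream and 1274 bp downstream, and that of Atf3 2718 bp upstream and 1399 bp downstream, and this lean held in both pools. Dusp1 was the most one-sided, with 807 bp upstream and 5749 bp downstream. Its reach beyond 4095 bp came from separate bridged peaks, with fold enrichments of 4.89 and 3.77 in the replicated list. Pool H's list did not hold the farther of these. Fosl2 and Ier2 were nearly even, with 3127 bp upstream and 3313 bp downstream for Fosl2 and 2900 bp upstream and 3019 bp downstream for Ier2.

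**Figure D4:**
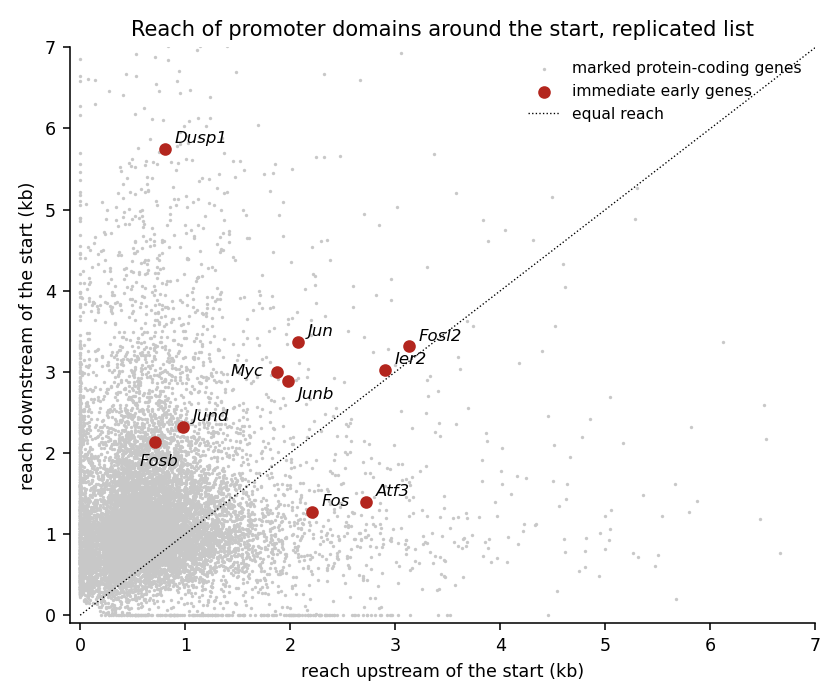
Reach of the promoter domain upstream (horizontal) and downstream (vertical) of the main start, in kb, in the replicated list, with the members in red and all genes marked at that start in grey; 67 genes lie beyond the axes. Fos and Atf3 fall below the dotted line of equal reach, and the other 8 members on or above it.

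In 5 members the domain, bridged gaps included, covered the whole span of the longest coding transcript and ran past the 3′ end of that transcript. It ran on by 186 bp at Jun, 1073 bp at Junb, 657 bp at Jund, 1498 bp at Ier2 and 2820 bp at Dusp1. The annotated Junb gene reaches farther than this transcript, to position 84974484 of chromosome 8, past the domain's edge at 84975837. These transcripts are short, and short ones are easier to cover. Among spans of at most 5000 bp the count was 5 of 7 members, against 11.6% of the 1693 marked genes of that size, and the 2 short members not covered were Fos and Myc. Coverage also depends on domain width, which had a median of 4871 bp over the 7 short members and 1715 bp over those genes. No share at like width was taken. Pool G's list gave the same 5 genes, against 12.5% of short genes, and pool H's list gave 4 of them, against 9.42%, since there the Jun domain stopped 57 bp before the 3′ end. The long genes Fosb, Fosl2 and Atf3 were covered over 29.0%, 15.0% and 10.7% of their spans.

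At 5 members the peaks broke just before the start. The unmarked stretch was defined, after the values were seen, as a gap between 2 neighbouring peaks of a domain that overlaps the 200 bp before the main start, with the start base counted as 0. In the replicated list it ran over positions -308 to -32 at Jun, -152 to -34 at Junb, -127 to -12 at Jund, -124 to -24 at Atf3 and -131 to 5 at Dusp1. Only at Dusp1 did it hold the main start itself, which at the other 4 lay under the downstream peak. The count was 5 of 10 members, against 11.3% of the 13125 genes marked at their main start and 20.1% of the genes whose domains were at least as wide as the narrowest member. Among domains of more than 1 peak it was 5 of 6 members, against 47.4% of genes. A gap means only that no peak was called there, since the lists give no signal between peaks.

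The break was called in both pools at Jun, Junb and Dusp1. At Jun it was 232 bp in pool G against 318 bp in pool H, at Junb 105 bp in pool G against 134 bp in pool H, and at Dusp1 110 bp in pool G against 155 bp in pool H. At Jund and Atf3 it was found in pool H, with 154 bp at Jund and 206 bp at Atf3, while pool G's peak ran across the start. Pool H's list also split Fosl2 over -110 to -10. The count was thus 3 of 10 in pool G, against 8.64% of all genes there, and 6 of 10 in pool H, against 14.1%. Fos, Fosb and Myc had an unbroken start in every list, and Ier2 had its gap farther upstream in the replicated list.

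The promoters of the members were rich in CpG. Over the 1000 bp on either side of the main start, their median ratio of observed to expected CpG was 0.745 and their median GC share 60.2%, beside 0.616 and 54.2% over marked genes and 0.483 and 51.5% over all genes. Fosl2 had the highest ratio, 0.949, and Fos the lowest, 0.658, which was still above that of 73.9% of genes. The RefSeq promoter table held 8 of the 10 members, without Myc and Ier2, and motifs were counted for those 8 over the 250 bases before the main start and the 50 bases from it on, beside the shares of all 21670 genes and of the 13657 marked genes.

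The core of the cAMP response element, TGACG, was present in 7 of 8 promoters, all but Jun, against 23.6% of all genes and 30.9% of marked genes. Its positions in the Fos sequence printed above were -129 and -66. Jun's copy, in its printed stretch, lies upstream of the window counted. The full palindrome TGACGTCA, which contains the core on both strands, was present in Dusp1 at -96, inside its unmarked stretch, and in Jund at -214, upstream of its stretch, so in 2 of 8, against 2.47% of all and 3.34% of marked genes. A GC box was found in 7 of 8 members, all but Junb, against 45.6% of all genes and 64.0% of marked genes. A TATA box was found in Fos at -33 and in Junb at -30, against 12.5% of all and 7.11% of marked genes, and CCAAT in Atf3, Jun, Junb and Jund, against 38.3% of all and 37.3% of marked genes. CACGTG was found in Dusp1 alone of the 8, against 7.84% of all and 9.85% of marked genes. Neither TGANTCA, present in 6.57% of all and 4.45% of marked genes, nor the CArG box, present in 1.46% of all and 1.26% of marked genes, had a match in the 8 windows. The absence covers these letters in these windows only, and the serum response element known for Fos lies upstream of its window.

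Beyond their promoters, the members differed in how much marked chromatin surrounded them. Within 50000 bp of the main starts the replicated list held 47 other peaks outside the members' domains, of which 15 lay at no annotated start of any gene. Fosl2, Jun and Myc had no other peak within that distance, and the single one near Atf3 lay at the start of D730003I15Rik. Fos had 4 peaks at no annotated start, and 2 of them were in both pools. The upstream one, from -18519 to -17704, had a fold enrichment of 14.4 in pool G and 10.3 in pool H. The downstream one, from 11708 to 14002, spanned 2295 bp and had 14.4 in pool G and 9.24 in pool H. Both lay below the Fos promoter in the same lists.

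At Junb the nearby mark was higher than the promoter. A peak from -7815 to -6253, at no annotated start, had a fold enrichment of 19.7 in pool G and 13.8 in pool H, while the Junb promoter had 12.8 in pool G and 9.79 in pool H. Fosb had 5 peaks at no annotated start, 1 of them inside the gene, from 4768 to 6353, with a fold enrichment of 8.33 in pool G and 5.48 in pool H. Ier2 had 2, the nearer from 5670 to 6904, past its 3′ end, with 10.8 in pool G and 7.78 in pool H. The 1 such peak near Jund and the 2 near Dusp1 had fold enrichments of at most 2.998 (Jund) and 3.873 (Dusp1) in the replicated list. Which gene such a peak belongs to is not given by the lists.

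In 5 of 10 members the domain also held the start of an annotated gene counted as noncoding. The share was 13.9% of the genes marked at their main start and 23.2% of those with domains at least as wide as the narrowest member. The antisense transcript Junos starts at -1018 from Jun, and the antisense transcript Gm11175 starts inside the Jund domain at 740. A long intergenic RNA, Gm26664, starts at -2276 from Ier2, and another, AC122252.2, at 5319 from Dusp1, in the part of its domain past the gene. Gm10463, a transcript awaiting experimental support, starts at -2633 from Fosl2, and is counted among the 5 although its annotation does not settle it as noncoding. The share of these domains that belongs to either partner cannot be told apart in a peak list.

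In the replicated list the related genes of the pathway were marked as completely, but were not all as broad. All 83 genes in 6 related lists had a promoter peak there, against 63% of all protein-coding genes, and 20 were among the widest 5%. The 14 other immediate early transcription factors had a median width of 3864 bp with 5 among the widest 5%, led by Klf4 (7733 bp) and Klf6 (6767 bp), Krüppel-like zinc-finger factors. In that list the highest fold enrichments were those of Nr4a2, an orphan nuclear receptor, with 22.0, and Csrnp1, with 21.7. Egr4, named after its values were seen, was the weakest, with 361 bp and a fold enrichment of 2.87, and had no promoter peak in pool H. The 21 other immediate early genes had a median of 4216 bp with 8 among the widest. They were led by the kinase gene Sgk1 (8546 bp) and by Zfp36 (7034 bp), which promotes mRNA decay, and the highest folds were those of the kinase genes Pim1 (25.1) and Sik1 (23.6).

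Partners and regulators were narrower. The 11 AP-1 partners had a median width of 2235 bp, and Maf had 4271 bp. Their highest fold enrichments were those of Atf2 (20.7), which pairs with Jun, and Mafk (20.6). The 18 upstream regulators had a median of 2302 bp with 1 among the widest, the ternary complex factor gene Elk3 (5952 bp), followed by Srf itself (4109 bp). Their highest folds were those of the MAP kinase genes Mapk14 (23.7) and Mapk9 (22.6). The 10 genes of the Myc network had a median of 2339 bp with 2 among the widest, Mxi1 (5019 bp), a Max-binding repressor, and Mycn (4845 bp), and Mnt had the highest fold enrichment, 24.3, with Mxi1 next at 22.8.

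The 9 other MAP kinase phosphatases, relatives of Dusp1, had a median of 2598 bp with 3 among the widest 5%. Dusp6 (7976 bp), a phosphatase for ERK, was wider than Dusp1 in the replicated list, and Dusp7 (5865 bp) was narrower, while Dusp8 had the highest fold enrichment of that list, 23.7. Dusp9, named after its values were seen, had 244 bp and no promoter peak in pool H. All medians of these lists stood above the 1799 bp of marked genes, and none reached the 4864.5 bp of the 10 members.

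**Figure D5:**
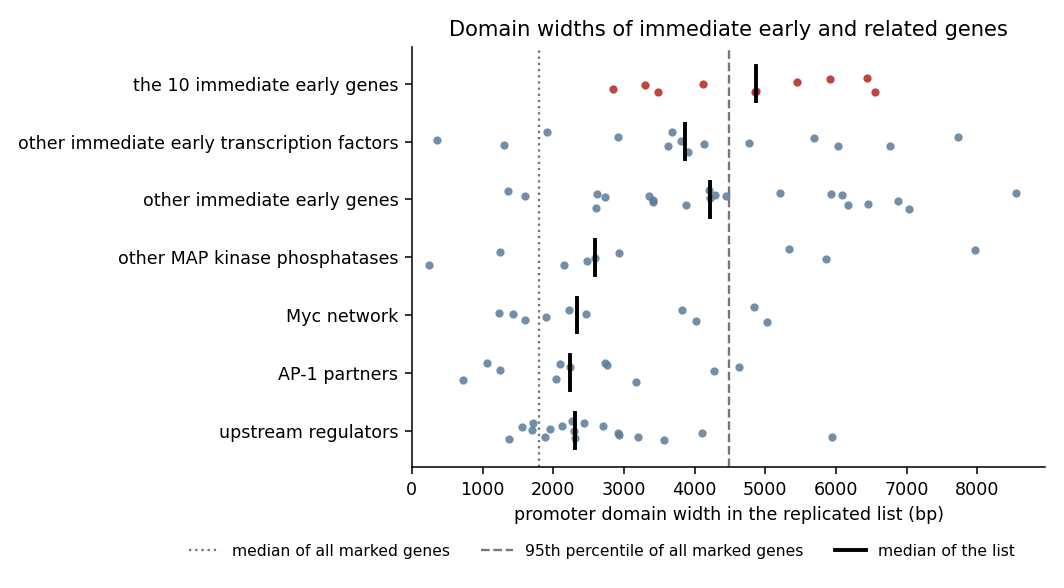
Promoter domain widths (bp) in the replicated list, 1 point per gene, for the 10 immediate early genes (red) and 6 related lists (blue), with the list median as a black bar. Dotted and dashed lines are the median, 1799 bp, and the 95th percentile, 4482 bp, of all marked genes; the other immediate early genes, with a median of 4216 bp, come nearest to the members.

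The genes most like Dusp1, by the mean absolute difference of the percentiles of width and fold enrichment in both pools' lists (4 values), were Hlx at 0.839 percentile points, Ski at 1.05 and Srgap2 at 1.34. The series as a whole had 24826 peaks in pool G's list, 21505 in pool H's list and 24996 in the replicated list, with promoter peaks at 63.4% of genes in pool G and 61.3% in pool H. As a check of the labelled tissue, 8 of 8 cardiomyocyte markers, 4 of 4 endothelial and 4 of 4 fibroblast markers had a promoter peak in the replicated list, while 0 of 5 immune and 0 of 4 hepatocyte markers did. The cardiomyocyte markers were 7813 bp wide at the median in the replicated list, where their fold enrichment had a median of 9.24. Their median width was 8360.5 bp in pool G but 5189 bp in pool H, where that of the members was 4803 bp.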

How the data were processed

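H3K4me3 ChIP-seq peak lists of heart, in narrowPeak format on mm10, were read as the authors deposited them: 1 per pool, and 2 made from both pools, called pseudoreplicated and replicated. Per the deposited notes, the technical replicates of a pool share an alignment, so no list gives values per library. The peak caller and its threshold are not given in the sources used here, nor is read depth, so no interval for depth was set. The authors' deposited signal value was taken to be fold enrichment, that is a ratio over a control. This is an assumption, since the column has no name, so values were compared within a list, apart from the ratio of the pools. The deposited -log10 q value served only for an alternative threshold; 667 replicated peaks had q over 0.05.

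A gene was called marked where at least 1 bp of a peak fell within 1000 bp of any protein-coding start in GENCODE M21. The highest of these peaks gave the gene's fold enrichment, and its width was that of the widest domain it touched after gaps of up to 1000 bp were bridged. With 2 pools and no values per library, no test was made: counts, medians and mean ± SD are descriptions. The members and lists were chosen with earlier results of these data known. Of each related list the 2 widest, the 2 highest and the unmarked genes were to be named. Of the genes this rule names, 1 is not reported here. Tried as alternatives were the remaining lists, peaks with -log10 q of 5 or more, promoter windows of 500 and of 2000 bp, only the longest transcript's start, a peak on the start itself, gaps of 0 and 3000 bp, and the widest 2% and 10%. Intervals and motif searches were checked on simulated data. Python 3.11.15, numpy 2.4.6, pandas 2.3.3 and matplotlib 3.10.9 were used.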

Additional observations from a re-analysis of the deposited data

How the results depend on the processing

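No paired analysis was possible because no result came from a test and the lists hold no values per library. All 10 members were marked in every list and under each alternative tried, and when a peak had to cover a start of the gene, 9 rather than 10 were so in all 4 lists, the exception being Atf3 in pool H. The members' median width was 3444.5 bp with no gaps joined (1627 bp over all marked genes) and 5157.5 bp with gaps of 3000 bp joined (1869 bp over all). Among the widest 2% there were 2 members, and among the widest 5% there were 4 with no gaps joined and 4 with gaps of 3000 bp joined. With no gaps joined Jun and Junb dropped out. Their widest peaks in the replicated list, 3406 bp at Jun and 2915 bp at Junb, were below the bound of 3516.6 bp. The count of starts with an unmarked stretch, an alternative added after the data were seen, was 3 without pool H and 6 without pool G. The other recomputed values stayed within their spread over pools, or within 1.5 times for counts. That spread was itself taken from pool G's and pool H's own lists, so it cannot judge values from those lists. The members' median fold enrichment was 21.8 in pool G and 14.0 in pool H, against 17.4 in the replicated list. Over all marked genes it was 18.2 in pool G and 12.9 in pool H. Breaks in a peak depend on the caller, whose settings are not known here. Fold enrichment differs between the lists as a whole, and 2 pools give no measure of error between animals.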
